A study of Mus musculus with 2 samples.

Results

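The genes that write, maintain and erase DNA methylation were followed through the cell types of mouse embryos at embryonic day 7.0, in RNA and in chromatin accessibility. They were 8 of the 32285 genes measured, chosen by symbol: Dnmt1, Dnmt3a, Dnmt3b, Dnmt3l, Uhrf1, Tet1, Tet2 and Tet3. With them went the 190 accessibility peaks, of 229480 in all, that lay within 50 kb of a start of one of the 8. Embryonic nuclei held more RNA of the de novo methyltransferases Dnmt3a and Dnmt3b, at 2.70-fold and 2.07-fold, whereas RNA of their catalytically inactive partner Dnmt3l was 5.68-fold higher in extraembryonic nuclei and sat mainly in extraembryonic ectoderm-like nuclei. Dnmt3a and Dnmt3b were highest in epiblast-like and then streak-like nuclei, while embryonic mesoderm-like nuclei held less Dnmt3b than extraembryonic ectoderm-like nuclei. Tet1 was highest in epiblast-like nuclei and Tet2 was lowest there, while the maintenance pair Dnmt1 and Uhrf1 differed little between the embryonic and extraembryonic sets.

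Both assays came from the same nuclei: 1 RNA library and 1 accessibility library of a single pool of dissociated mouse embryos, both at E7.0, with no treatment and no genotype contrast. No barcode could be tied to an embryo, so there were no replicates; no test was made, and every interval is a 95% interval for counting error only. The labels conflicted. Title, age and protocol named E7.0 embryos, while source, tissue, cell type and strain named the small intestine, the distal colon, goblet cells and RedMUC298trTg. The grouping followed the first reading, and the 8 goblet and intestinal markers summed to at most 11.8 counts per 1000000 UMIs (CPM) in any class of nuclei. The files held 182201512 UMIs and 273131304 peak counts over 15341 barcodes, of which 12796 nuclei were kept, with medians of 10471 UMIs and 17350 peak counts. Of the barcodes, 1154 were called doublets and removed.

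Nuclei were classed by clustering, and classes were named from marker lists that held no member; each name below means a nucleus that is like that type. RNA levels were read in classes built from accessibility, and accessibility in classes built from RNA, so that no cluster was formed from the counts it was used to read. Names, and the choice of clusters left unnamed, came from the RNA of the markers for both clusterings. The embryonic set joined epiblast-, primitive streak-, embryonic mesoderm- and anterior streak, node and definitive endoderm-like nuclei (6612 nuclei for RNA and 7070 for accessibility). The extraembryonic set joined extraembryonic ectoderm-, visceral endoderm- and parietal endoderm-like nuclei (2994 and 2711). Extraembryonic mesoderm- and haemato-endothelial-like nuclei, which come from the epiblast but leave the embryo proper or form blood and vessels, were in neither set. From accessibility they were 347 and 299 nuclei. From RNA, 728 nuclei were named haemato-endothelial and no cluster was named extraembryonic mesoderm, so accessibility was not read for the latter. Whether the 728 included extraembryonic mesoderm nuclei was not tested. The 2 clusterings placed 33 nuclei in opposite sets. Clusters that met no name, 2544 nuclei for RNA and 2287 for accessibility, were in neither set. The epiblast list summed to 1703 CPM in epiblast-like nuclei, the visceral endoderm list to 13703 CPM in visceral endoderm-like nuclei, and the extraembryonic ectoderm list to 934 CPM in its own class and 45.5 to 100.1 CPM in the others. These lists also gave the names, so their sums describe the classes and do not check them. Other lists separated their classes less. The epiblast list stood at 948 CPM in the anterior class and 754 CPM in extraembryonic ectoderm, the streak list at 594 CPM in its own class and 555 CPM in embryonic mesoderm, and the extraembryonic mesoderm list at 537 CPM in its own class and 495 CPM in extraembryonic ectoderm.

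In mammals, DNA methylation sits mostly on cytosines of CpG pairs. Dnmt3a and Dnmt3b place it on unmodified DNA and Dnmt3l, which lacks an active catalytic site, stimulates them; Dnmt1, guided by the hemimethylated-CpG reader Uhrf1, copies it to the new strand after replication. Tet1, Tet2 and Tet3 oxidise the methyl group and so start its removal. The epiblast gains methylation across its genome around implantation, while the extraembryonic ectoderm, a source of the placenta, is known to stay less methylated genome-wide, with gains at some CpG-rich promoters.

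These promoters show the range of DNA on which these results rest, each as the 250 bases before a transcription start, 5′ to 3′ on the strand of the gene, with every CpG in capitals. Dnmt3l, at chr10:78049592-78049841 (+), is shown because the accessibility of its promoter window differed most between the sets; the 2 promoters of Dnmt3a, at chr12:3806730-3806979 and chr12:3891494-3891743 (both +), because only the downstream one was lower in extraembryonic ectoderm; Dnmt3b, at chr2:153649199-153649448 (+), because its RNA differed 2.07-fold and its promoter 1.11-fold; and Tet2, at chr3:133544391-133544640 (−), because it held the most CpGs.
Dnmt3l: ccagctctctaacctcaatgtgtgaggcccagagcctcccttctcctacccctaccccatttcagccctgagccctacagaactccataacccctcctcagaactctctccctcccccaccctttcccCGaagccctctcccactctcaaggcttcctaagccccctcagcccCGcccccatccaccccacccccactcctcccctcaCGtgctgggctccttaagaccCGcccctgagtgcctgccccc
Dnmt3a upstream: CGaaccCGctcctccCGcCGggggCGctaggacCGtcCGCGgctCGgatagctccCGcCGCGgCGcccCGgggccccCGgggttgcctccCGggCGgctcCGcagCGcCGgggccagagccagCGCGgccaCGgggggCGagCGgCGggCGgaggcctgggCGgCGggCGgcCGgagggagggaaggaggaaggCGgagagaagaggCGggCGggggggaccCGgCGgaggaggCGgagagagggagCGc
Dnmt3a downstream: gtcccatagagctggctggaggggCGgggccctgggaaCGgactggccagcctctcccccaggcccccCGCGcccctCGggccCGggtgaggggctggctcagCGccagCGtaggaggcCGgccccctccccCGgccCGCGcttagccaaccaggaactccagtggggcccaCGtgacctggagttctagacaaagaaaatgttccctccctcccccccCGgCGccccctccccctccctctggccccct
Dnmt3b: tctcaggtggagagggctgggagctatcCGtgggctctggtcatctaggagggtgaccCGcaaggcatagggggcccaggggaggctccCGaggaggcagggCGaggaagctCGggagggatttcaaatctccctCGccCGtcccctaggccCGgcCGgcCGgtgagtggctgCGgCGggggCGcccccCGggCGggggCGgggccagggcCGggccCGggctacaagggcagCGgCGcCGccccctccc
Tet2: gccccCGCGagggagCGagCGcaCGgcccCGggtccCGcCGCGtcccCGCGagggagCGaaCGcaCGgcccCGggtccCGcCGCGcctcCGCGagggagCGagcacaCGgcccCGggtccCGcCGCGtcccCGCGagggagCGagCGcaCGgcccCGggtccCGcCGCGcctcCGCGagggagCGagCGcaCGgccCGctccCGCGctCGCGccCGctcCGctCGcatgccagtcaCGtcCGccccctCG
The sequences are those of RefSeq for GRCm38.p6, the same assembly as the mm10 build that the submitters' processing notes name.

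Counted over 250 bases before to 50 bases after the start, the Dnmt3l promoter held 4 CpGs, fewer than the median of 7 over 32817 RefSeq promoters. The Tet2 promoter held 57, more than 99.8% of them, the upstream Dnmt3a promoter 46, the Dnmt3b promoter 30 and the downstream Dnmt3a promoter 18. The letters CACGTG, an E-box that reads the same on both strands, were in the Dnmt3l promoter and in the downstream Dnmt3a promoter, and in 7.15% of all promoters. Of 3 spellings of an E2F site searched on both strands (TTTCGCGC, TTTGGCGC and TTTCCCGC), TTTCGCGC was in 1 promoter each of Uhrf1 and Dnmt1, against 0.323% of all promoters, and TTTGGCGC in the same Dnmt1 promoter, against 0.515%; these matches did not overlap. CCAAT was in 37.4% of promoters, AGATAA in 11.2% and ATGCAAAT in 1.74%, and of these only CCAAT was in a member's promoter. Such matches describe the letters, not binding.

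Of the 8 genes, 2 were 2-fold or more higher in embryonic nuclei and 1 in extraembryonic nuclei. Among all 15455 genes with at least 100 UMIs over both sets, 18.9% were that much higher in embryonic and 13.2% in extraembryonic nuclei, with a median ratio of 1.06, so 2 and 1 of 8 are not set apart by their number. All 8 passed the UMI minimum. The genes are described below by role: de novo writers first, then the maintenance pair, then the erasers.

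**Figure D1:**
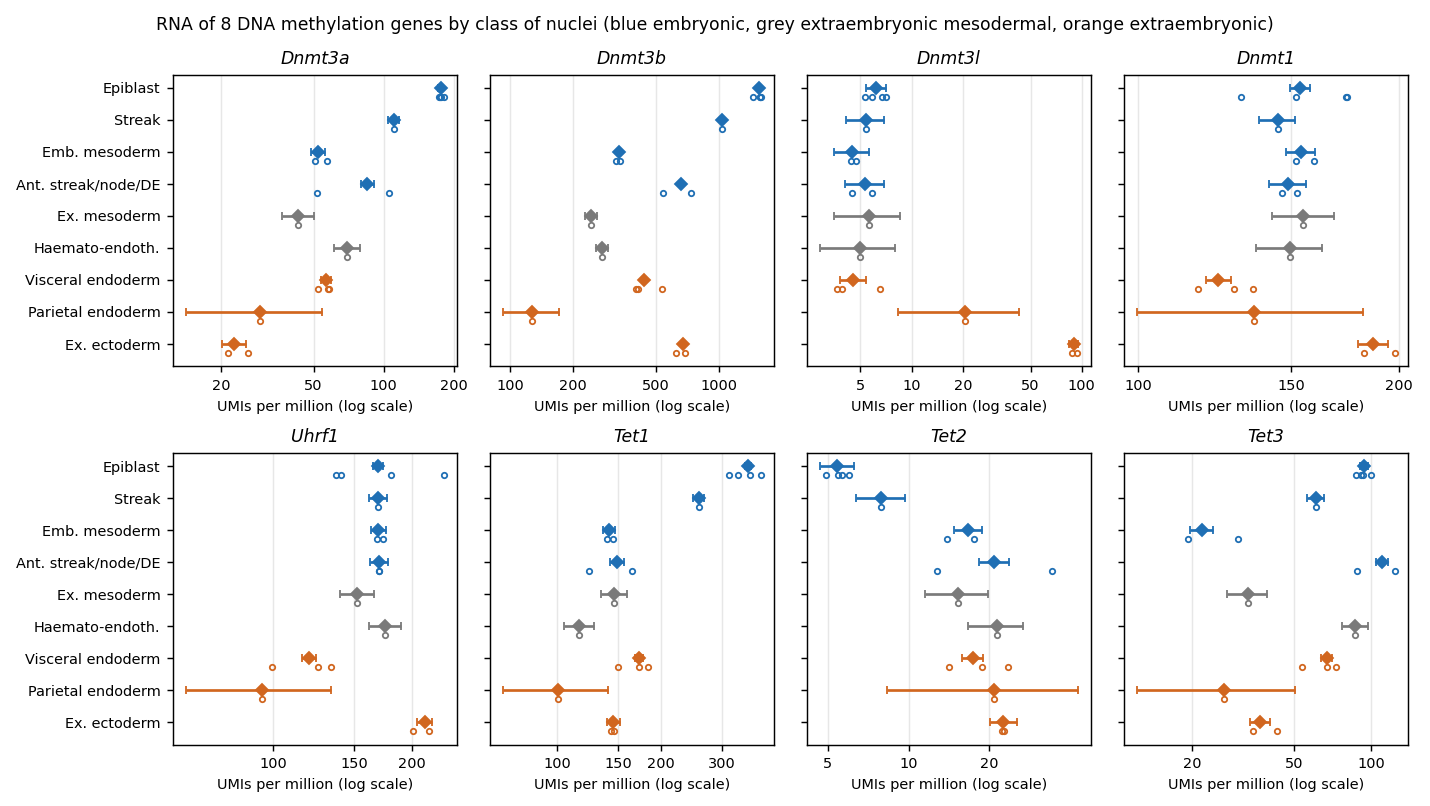
RNA level of each gene in CPM (log axis) in 9 classes of nuclei defined from accessibility; diamonds are classes with 95% counting intervals and open circles the single clusters of that class. Dnmt3a, Dnmt3b and Tet1 are highest in epiblast-like nuclei, Dnmt3l in extraembryonic ectoderm-like nuclei, and Tet2 is lowest in epiblast-like nuclei.

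Dnmt3a (ENSMUSG00000020661, chromosome 12) had 123 CPM in embryonic and 45.6 CPM in extraembryonic nuclei, 2.70-fold higher in the former (2.57 to 2.83). Epiblast-like nuclei held 176 CPM (172 to 181), streak-like 111, anterior streak, node and definitive endoderm-like 85.2, haemato-endothelial-like 69.7, visceral endoderm-like 56.3, embryonic mesoderm-like 52.4, extraembryonic mesoderm-like 42.8 and extraembryonic ectoderm-like 22.8 CPM (20.3 to 25.6). The 26 parietal endoderm-like nuclei gave 29.6 CPM (14.2 to 54.4) on 10 UMIs, but the 181 nuclei named so from RNA gave 84.2 CPM (73.4 to 96.2) on 216 UMIs, so parietal endoderm was given no place in the order. Intervals of the first 3 classes did not meet those of the next class, and visceral endoderm, embryonic mesoderm and extraembryonic mesoderm overlapped in turn. The haemato-endothelial place above them was not fixed. The 728 nuclei named so from RNA gave 54.4 CPM (49.3 to 59.8), beside 51.2 (47.8 to 54.9) in embryonic mesoderm named from RNA. No class named from RNA was extraembryonic mesoderm, and its part in the 54.4 CPM was not tested. The level in the epiblast was thus 7.72-fold (6.87 to 8.69) that in the extraembryonic ectoderm, and already 3.36-fold (3.13 to 3.61) that in the embryonic mesoderm, so the low levels were not confined to the extraembryonic set. At least 1 Dnmt3a UMI was found in 76.0% of epiblast-like and 22.9% of extraembryonic ectoderm-like nuclei, although the latter were deeper (medians of 10393 and 12161 UMIs); after thinning each nucleus to 5000 UMIs the shares were 56.0% and 10.5%. The extraembryonic ectoderm level was 26.0% of that in all kept nuclei. The 8 epiblast markers gave no single background share there: Enpp3, Fgf5, Slc7a3 and Pim2 stood at 12.1% to 28.4% of their all-nuclei levels, Pou5f1 at 39.8%, and L1td1, Utf1 and Sox2 at 146% to 277%. How much of the Dnmt3a level in that class, and of the fold against it, is free RNA was not tested.

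Dnmt3b (ENSMUSG00000027478, chromosome 2), the other de novo enzyme, had 1052 CPM in embryonic and 508 CPM in extraembryonic nuclei, a ratio of 2.07 (2.04 to 2.10). It was under 2-fold when called doublets were kept (1.74) and when 1 naming rule, dropped after the data were seen, let more clusters in (1.98). Its order of classes was not that of Dnmt3a. Epiblast-like nuclei held 1556 CPM and streak-like 1042, then came extraembryonic ectoderm with 671 CPM (657 to 685) and anterior streak, node and definitive endoderm with 662 (647 to 677), whose intervals overlapped. Visceral endoderm held 437 CPM, embryonic mesoderm 332, haemato-endothelial nuclei 275, extraembryonic mesoderm 243 and parietal endoderm 127 (173 in the nuclei named so from RNA). Extraembryonic ectoderm, the class lowest in Dnmt3a, therefore had 2.02-fold (1.96 to 2.09) the Dnmt3b level of embryonic mesoderm, while for Dnmt3a the mesoderm had 2.29-fold (2.01 to 2.62) the level of the extraembryonic ectoderm. The Dnmt3b level of embryonic mesoderm was 42.0% of that in all kept nuclei, haemato-endothelial nuclei were at 34.8% and extraembryonic mesoderm at 30.8%; extraembryonic ectoderm markers stood at 17.2% to 52.1% in epiblast-like nuclei, and the part of free RNA in these levels and folds was not tested. Dnmt3b UMIs were found in 99.3% of epiblast-like nuclei and in 96.1% of extraembryonic ectoderm-like nuclei.

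Dnmt3l (ENSMUSG00000000730, chromosome 10) ran the other way, with 5.53 CPM in embryonic and 31.4 CPM in extraembryonic nuclei, 5.68-fold higher in the latter (5.08 to 6.36). The embryonic over extraembryonic ratio, 0.176, was 0.107 with doublets kept. Of its 1315 UMIs in the extraembryonic set, 1179 came from 1 class. Extraembryonic ectoderm-like nuclei held 89.7 CPM (84.6 to 94.9), with a UMI in 55.6% of them, and an unnamed cluster of 632 nuclei that led in extraembryonic ectoderm markers held 89.8 CPM. Visceral endoderm-like nuclei, also extraembryonic, held 4.54 CPM (3.79 to 5.39), 19.8-fold less (16.5 to 23.9), and epiblast-like nuclei 6.19 CPM, 14.5-fold less (12.5 to 16.9). The classes other than extraembryonic ectoderm and parietal endoderm (20.7 CPM on 7 UMIs) spanned 4.46 to 6.19 CPM, with overlapping intervals from one neighbour to the next. Their shares of nuclei with a UMI were 4.70% to 6.48%, and their levels were 23.8% to 33.1% of the 18.7 CPM in all kept nuclei. The 9 markers of extraembryonic ectoderm stood at 17.2% to 52.1% (median 23.6%) of their all-nuclei levels in epiblast-like nuclei, which are not expected to make them. Dnmt3l outside the ectoderm and parietal endoderm lay within that range, and no expression was read from it. None was read in parietal endoderm either, since the 181 nuclei named so from RNA held 6.24 CPM (3.57 to 10.1) on 16 UMIs. The part of free RNA in the levels outside the ectoderm, and in the folds against them, was not tested.

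The maintenance pair was close to even. Dnmt1 (ENSMUSG00000004099, chromosome 9) had 152 CPM in embryonic and 144 CPM in extraembryonic nuclei, a ratio of 1.06 (1.02 to 1.09) that turned below 1 under 5 of 12 other settings, down to 0.923. Uhrf1 (ENSMUSG00000001228, chromosome 17) had 169 and 149 CPM, a ratio of 1.14 (1.10 to 1.17) that turned to 0.970 with doublets kept. The set averages hid a split inside the extraembryonic lineages, which was larger than either ratio. Extraembryonic ectoderm-like nuclei were highest for both genes, at 187 CPM (179 to 194) of Dnmt1 and 214 CPM (206 to 222) of Uhrf1. Visceral endoderm-like nuclei held 124 CPM (120 to 128) and 120 CPM (116 to 124), so that the ectoderm exceeded the endoderm 1.51-fold (1.43 to 1.59) for Dnmt1 and 1.79-fold (1.70 to 1.88) for Uhrf1. The pooled embryonic classes lay between, from 145 to 154 CPM of Dnmt1 and within 1 CPM of 169 for Uhrf1 (159 to 176 CPM in classes built from RNA), and their intervals overlapped from one neighbour to the next. Single clusters spread more: over the 4 epiblast clusters Uhrf1 ran from 137 to 235 CPM, and the interval of the highest of these (225 to 246) reached above those of both extraembryonic ectoderm clusters (levels of 219 and 202).

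Dnmt1 and Uhrf1 act at replication, so their RNA was set beside 20 S phase genes that did not include them. None of the 20 was 2-fold apart between the sets, their median ratio was 1.22 and they ranged from 0.928 to 1.63. By class, their summed level was 3657 CPM in extraembryonic ectoderm, 2178 in visceral endoderm, 2555 in parietal endoderm and 3106 to 3592 in the embryonic classes. Between extraembryonic ectoderm and visceral endoderm the sum thus moved with Dnmt1 and Uhrf1. Its part in their difference was not tested. Within a class, nuclei of at least 5000 UMIs were then ranked by the share of their UMIs in those 20 genes and split into a low, a middle and a high group of equal size. Uhrf1 in epiblast-like nuclei went from 117 CPM in the low group through 157 to 250.02 CPM in the high group, 2.13-fold (1.996 to 2.28). The same ratio was 2.44 in streak-, 2.20 in embryonic mesoderm-, 2.11 in visceral endoderm- and 1.62-fold (1.47 to 1.78) in extraembryonic ectoderm-like nuclei. Dnmt1 moved less, from 132 to 188 CPM in the epiblast, 1.43-fold (1.33 to 1.53), and 1.15-fold (1.04 to 1.28) in the extraembryonic ectoderm. Such a rise was not confined to the maintenance pair: Dnmt3l in the extraembryonic ectoderm was at 1.45-fold (1.26 to 1.68), above Dnmt1 there, and Dnmt3a was at 1.33-fold (1.12 to 1.58) in embryonic mesoderm, 1.34-fold (1.18 to 1.52) in visceral endoderm and 1.18-fold (1.03 to 1.36) in the streak, but at 0.983 (0.921 to 1.049) in the epiblast. Tet1 ran the other way, with ratios of 0.736 (0.702 to 0.772) in the epiblast and 0.661 (0.585 to 0.746) in the extraembryonic ectoderm. In embryonic mesoderm its interval held 1 (0.829 to 1.02). Tet2 was at 0.645 (0.471 to 0.878) in the extraembryonic ectoderm, and Tet3 at 0.877 (0.801 to 0.960) in the epiblast and 0.869 (0.773 to 0.976) in visceral endoderm. Intervals of Tet2 and Tet3 held 1 in their other classes. Dnmt3b moved in both directions over the 5 classes. It was at 1.17 (1.10 to 1.26) in embryonic mesoderm and 1.15 (1.10 to 1.20) in visceral endoderm. In the epiblast it was at 0.955 (0.934 to 0.976) and in the extraembryonic ectoderm at 0.868 (0.823 to 0.915). Its interval held 1 in the streak (0.937 to 1.03). Nuclei of the high group were shallower, with medians of 9244 against 11484 UMIs in the epiblast. The groups were not split by cluster. Among the epiblast clusters, the one highest in Uhrf1 (235 CPM) had a median of 8711 UMIs and the lowest (137 CPM) one of 13476. The parts of depth and of cluster in these ratios were not tested.

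**Figure D2:**
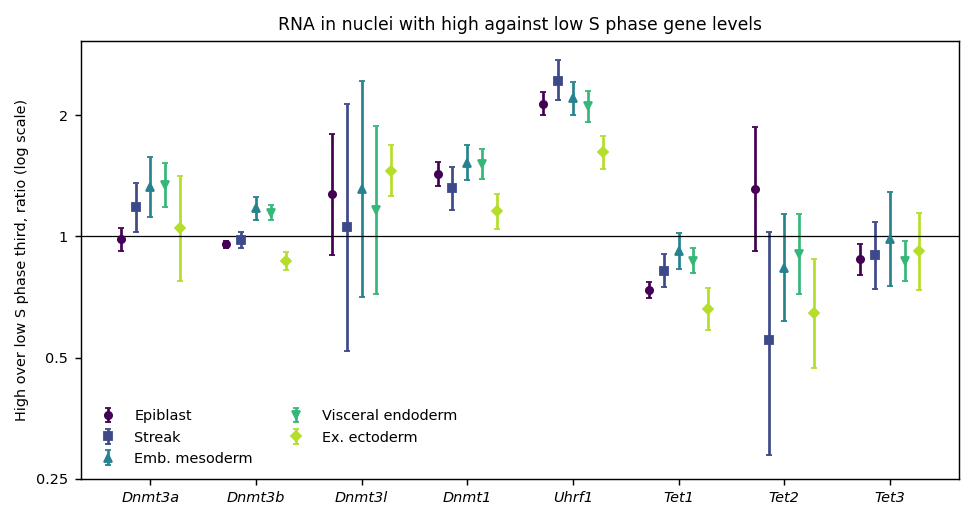
Ratio of RNA level in the group of nuclei with the highest S phase gene share to that in the group with the lowest, of 3 equal groups (log axis), for 8 genes in 5 classes (marker shapes), with 95% counting intervals. Uhrf1 is at 1.62 to 2.44 in every class shown, Dnmt1 above 1 and Tet1 below 1. Dnmt3l in extraembryonic ectoderm (1.45) and Dnmt3a in embryonic mesoderm and visceral endoderm (1.33 and 1.34) are above 1 as well. Dnmt3b is above 1 in embryonic mesoderm and visceral endoderm (1.17 and 1.15) and below 1 in epiblast and extraembryonic ectoderm (0.955 and 0.868).

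Among the erasers, Tet1 (ENSMUSG00000047146, chromosome 10) had 259 CPM in embryonic and 163 CPM in extraembryonic nuclei, 1.58-fold higher in the former (1.54 to 1.63). Epiblast-like nuclei held 357 CPM and streak-like 257; visceral endoderm followed with 172, and anterior streak, node and definitive endoderm, extraembryonic mesoderm, extraembryonic ectoderm and embryonic mesoderm, whose intervals overlapped in a chain, held 141 to 149 CPM. Haemato-endothelial nuclei held 115 CPM. The embryonic excess of Tet1 was thus carried by the epiblast and the streak: the epiblast level was 2.53-fold (2.42 to 2.64) that of embryonic mesoderm and 2.45-fold (2.34 to 2.58) that of extraembryonic ectoderm.

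Tet2 (ENSMUSG00000040943, chromosome 3) was scarce and ran against Tet1, with 10.8 CPM in embryonic and 19.0 CPM in extraembryonic nuclei, 1.76-fold higher in the latter (1.59 to 1.94). Epiblast-like nuclei held the least, 5.44 CPM (4.67 to 6.29), then streak-like with 7.92 CPM (6.39 to 9.70). All other classes lay between 15.3 and 22.5 CPM with overlapping neighbours, embryonic mesoderm (16.7) and anterior streak, node and definitive endoderm (20.9) among them. The split therefore ran between epiblast with streak and the rest, not between embryonic and extraembryonic: embryonic mesoderm had 3.07-fold (2.54 to 3.71) and extraembryonic ectoderm 4.14-fold (3.43 to 5.01) the epiblast level. The epiblast level was 34.4% of that in all kept nuclei, within the range of the extraembryonic ectoderm markers given for Dnmt3l, so no Tet2 expression was read there. Of those markers, whose median was 23.6%, only Bmp8b, Rhox6 and Rhox9 (35.5%) stood above it. The streak level, at 50.1%, was within that range only through Bmp8b (52.1%). It was above the next marker, Rhox6 (41.4%), and above the 10 visceral endoderm markers in epiblast-like nuclei (6.87% to 46.8%). The streak level was also 1.46-fold (1.12 to 1.88) the epiblast level, and whether the streak expressed Tet2 was not tested. The part of free RNA in these folds was not tested. Within the anterior class, 1 cluster held 34.2 CPM and the other 12.8 CPM. The highest cluster of all, with 420 nuclei, was unnamed and held 42.0 CPM (37.2 to 47.3).

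Tet3 (ENSMUSG00000034832, chromosome 6) had 74.2 CPM in embryonic and 57.2 CPM in extraembryonic nuclei, a ratio of 1.30 (1.24 to 1.36). Embryonic mesoderm-like nuclei were lowest of all classes, at 21.9 CPM (19.7 to 24.2), and extraembryonic mesoderm was low as well, at 32.9 CPM. Anterior streak, node and definitive endoderm-like nuclei were highest, at 109.9 CPM, then epiblast (93.8) and haemato-endothelial nuclei (86.6), whose intervals overlapped. In classes named from RNA the order differed: the anterior class held 113 CPM, parietal endoderm 98.2 (86.5 to 111) on 252 UMIs, beside 26.6 on 9 UMIs in the 26 nuclei above, and epiblast 95.3, while haemato-endothelial nuclei held 59.4 (54.1 to 65.0), below streak (68.9). Parietal endoderm and haemato-endothelial nuclei were therefore given no place in the order. As for Dnmt3a, no class named from RNA was extraembryonic mesoderm, and its part in the RNA-named haemato-endothelial level was not tested. The epiblast level was 4.29-fold (3.85 to 4.78) that of embryonic mesoderm, which was the lowest class by RNA as well (19.7 CPM). The mesoderm level was 32.9% of that in all kept nuclei, also within that range of the markers.

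Across the 21 accessibility clusters of at least 100 nuclei, some pairs of members rose together in log2(CPM + 1), some ran opposite and others did neither. Pearson's r was 0.860 between Dnmt3b and Tet1, 0.854 between Dnmt3a and Tet1, and 0.724 between Dnmt3a and Dnmt3b, and it was -0.808 between Tet1 and Tet2. Dnmt1 was at 0.504 with Uhrf1 and at 0.746 with Dnmt3l. Pairs with low values included Tet1 with Uhrf1 (0.00926), Dnmt3b with Dnmt3l (0.060) and Dnmt3a with Uhrf1 (-0.060). The clusters share 1 library, and 5 of them met no marker-based name, so these values describe the pattern only. Dnmt3l varied most over the clusters, 25.8-fold from lowest to highest, and Dnmt1 least, 2.32-fold. The highest Dnmt1 level, 271 CPM (243 to 302), was in an unnamed cluster of 166 nuclei, which held 39.3 CPM of Dnmt3l. The lowest Dnmt3l level, 3.66 CPM on 15 UMIs, was in a visceral endoderm cluster, a class in which no Dnmt3l expression was read. Among 10687 genes with at least 1000 UMIs, those most like Dnmt3l included S100a6 and AU018091, both at 0.978. Dnmt3a was most like Jakmip2 (0.956), Dnmt3b like Mal2 (0.966) and Tet1 like Bmerb1 (0.963). For Uhrf1 the closest 3 were Gm4425 (0.898), Psmc3ip (0.890) and Cdc6 (0.888), the last a replication licensing factor. Dnmt1 was closest to Mrpl40 (0.931), Tet2 to Fam117a (0.908) and Tet3 to Shprh (0.842).

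Promoter accessibility differed between the sets at Dnmt3l, in the direction of its RNA, and little elsewhere. Peaks from 1000 bp before to 100 bp after the starts were summed per gene, and the values are counts per 1000000 peak counts of the group (accessibility CPM). Of the 8, 1 was 1.5-fold or more higher in extraembryonic and 0 in embryonic nuclei, where 9.39% and 26.7% of 21405 genes were. Dnmt3l promoters had 8.55 in embryonic and 32.6 in extraembryonic nuclei, 3.81-fold higher in the latter (3.43 to 4.24). The embryonic over extraembryonic ratio, 0.262, was 0.406 in classes built from accessibility itself. Most of the difference came from 1 peak that ended just inside the upstream edge of the window of the second start: with windows from 500 bp before a start, chosen after the data were seen, that peak fell out and the promoters had 6.81 and 11.04, 1.62-fold higher in extraembryonic nuclei (1.40 to 1.88). The 2 genes with the clearest embryonic RNA excess had near-even promoters: Dnmt3a at 72.8 and 61.6, a ratio of 1.18 (1.12 to 1.25), and Dnmt3b at 31.0 and 28.0, a ratio of 1.11 (1.01 to 1.21). The Dnmt3b ratio was 0.956 when counts were scaled by the median ratio over peaks and 0.903 when 2000 bp on each side were taken, so its direction was not fixed; that scaling divides all accessibility ratios by 1.16. Tet1 was at 1.01 and turned below 1 under 7 of 15 other settings, Dnmt1 at 0.944, Tet2 at 0.928, Tet3 at 0.904 and Uhrf1 at 0.878 (0.828 to 0.932).

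**Figure D3:**
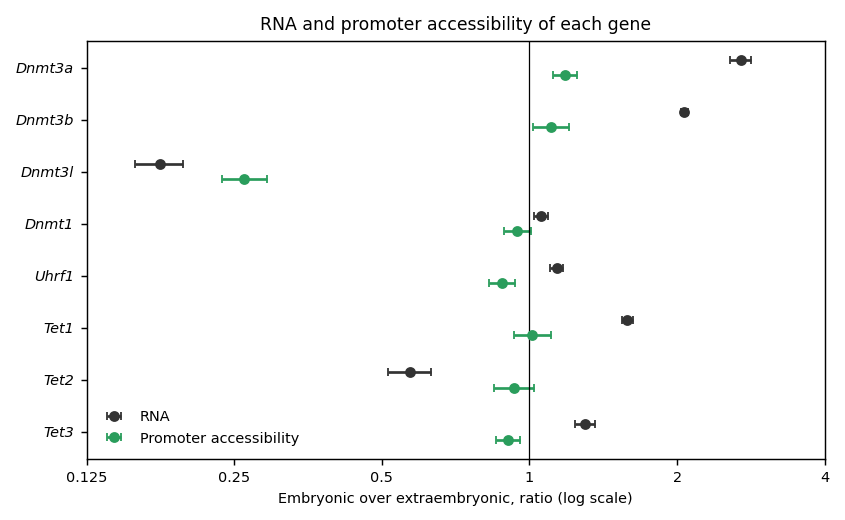
Ratio of embryonic to extraembryonic nuclei (log axis) for RNA and for promoter accessibility of each gene, with 95% counting intervals. RNA ratios spread from 0.176 for Dnmt3l to 2.70 for Dnmt3a, whereas all promoter ratios except that of Dnmt3l (0.262) lie between 0.878 and 1.18.

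Split by start, the Dnmt3l difference sat in the window of the second of 3 annotated starts, position 78049842 of chromosome 10. The bases printed above lie under the weaker of its 2 peaks, with 18.4 accessibility CPM in extraembryonic ectoderm; the upstream peak, with 46.2, does not reach them. Together the 2 peaks gave 64.7 accessibility CPM (60.0 to 69.6) in extraembryonic ectoderm-like nuclei, 6.45 in epiblast, 5.997 in streak, 5.98 in embryonic mesoderm, 4.89 in the anterior class, 8.54 in parietal endoderm and 1.65 (1.02 to 2.53) in visceral endoderm. The ectoderm stood apart from every other class at each of the 2 peaks, as in RNA. The third start, at 78055335, was low throughout, with a ratio of 1.12 (0.827 to 1.54), and the first, at 78042287, had no peak. Dnmt3a showed a smaller difference between its starts. The upstream start was even, at 35.4 accessibility CPM in epiblast and 32.8 in extraembryonic ectoderm, while the downstream start, at 3891744 of chromosome 12, had 43.5 (41.1 to 46.0) in epiblast and 21.3 (18.7 to 24.2) in extraembryonic ectoderm, the lowest class, with 36.4 in visceral endoderm. At Tet3, the upstream start (83456392 of chromosome 6) was the less accessible in embryonic nuclei, at a ratio of 0.766 (0.707 to 0.830), and the downstream start was even at 1.03. The upstream difference came through visceral endoderm (43.5 accessibility CPM), while extraembryonic ectoderm (22.8) lay below epiblast (28.7) and the anterior class (28.8). The RNA counts are per gene and were not split by start.

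Of the 190 peaks within 50 kb, all of which passed the minimum of 100 counts, 49 (25.8%) were 2-fold or more higher in embryonic and 29 (15.3%) in extraembryonic nuclei. Over 213023 peaks of the table the shares were 35.3% and 17.8%, and the median ratio was 1.34 against 1.10 near the members. As a group the members' surroundings were thus not more embryonic than the table; the count of 49 was 27 with doublets kept. The counts differed between genes. Around Dnmt3a, 26 of 43 peaks (60.5%) were higher in embryonic and 3 in extraembryonic nuclei, with a median ratio of 2.52; 17 of the 26 peaks inside the gene and 9 of the 17 outside it were among the embryonic ones. Around Tet3, 8 of 23 (34.8%) were higher in embryonic nuclei, near the 35.3% of the table, and 1 in extraembryonic nuclei. Around the maintenance genes none was 2-fold higher in embryonic nuclei (0 of 19 each), against 6 at Dnmt1 and 4 at Uhrf1 in extraembryonic nuclei; the closest embryonic peak at Uhrf1 stood at 1.996 and was not counted. Of the 29 extraembryonic peaks, 18 were highest in extraembryonic ectoderm and 11 in visceral endoderm. Over the whole table visceral endoderm led in 21423 of 37985 such peaks.

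**Figure D4:**
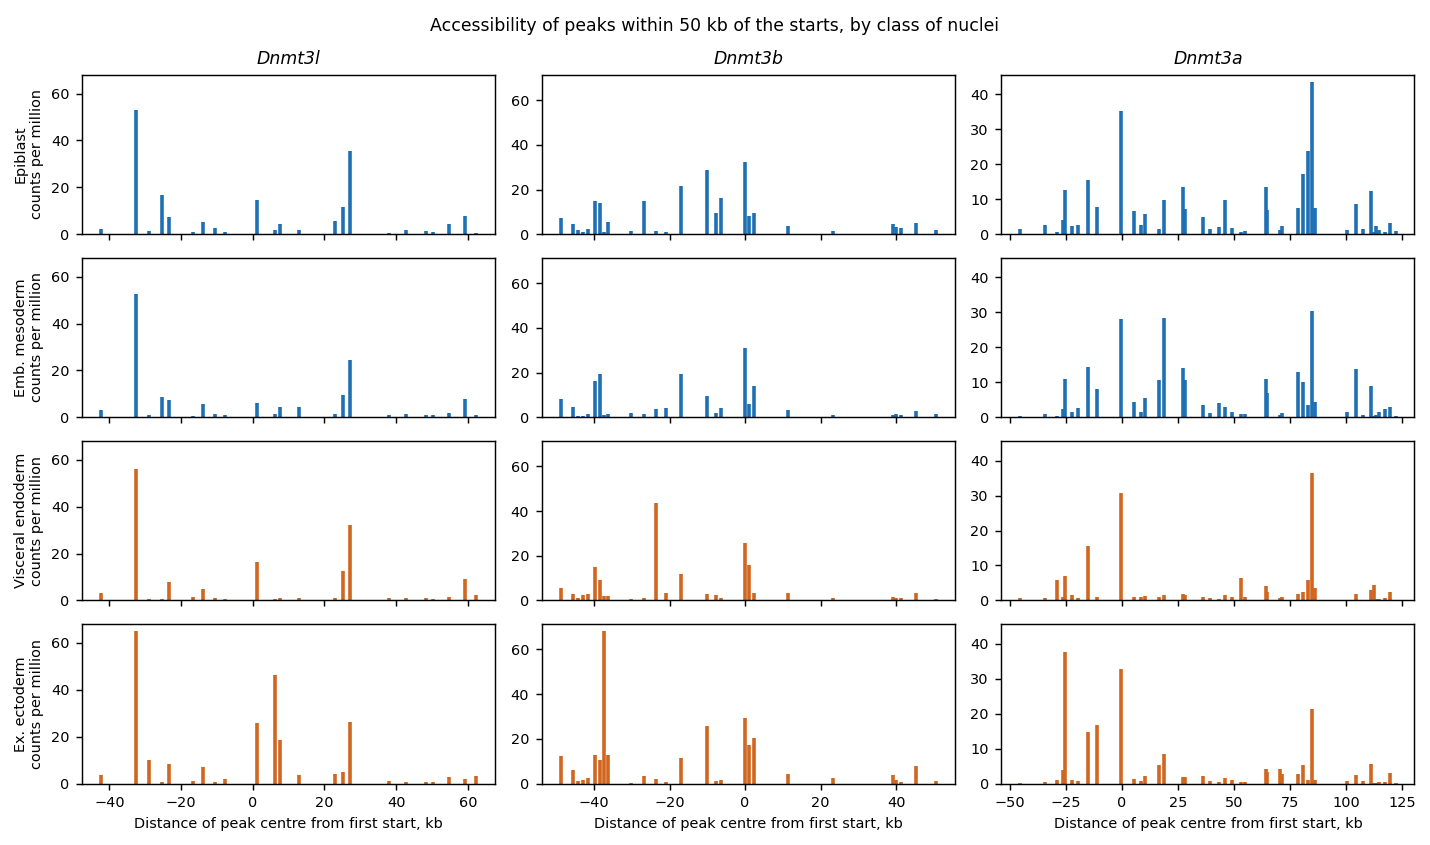
Accessibility (CPM, linear axis from 0) of each tested peak within 50 kb of the starts of Dnmt3l, Dnmt3b and Dnmt3a, by distance of the peak centre from the first start, in 4 classes of nuclei defined from RNA. Some peaks are high in 1 of the 4 classes, such as the peak of 68.1 in extraembryonic ectoderm upstream of Dnmt3b, while promoter peaks appear in all 4 rows at Dnmt3a and Dnmt3b.

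The 3 de novo genes had peaks with opposite class patterns within 50 kb of their starts. The peak with the largest ratio upstream of Dnmt3b in the embryonic direction, chr2:153642734-153643558, had 12.2 accessibility CPM in embryonic and 1.20 in extraembryonic nuclei, 10.2-fold (7.24 to 14.7). Epiblast (16.0), streak (12.9) and the anterior class (12.1) were high there and embryonic mesoderm (4.05), visceral endoderm (1.07) and extraembryonic ectoderm (1.44) low. Farther upstream, chr2:153611567-153612343 was 31.4-fold higher in extraembryonic nuclei (25.1 to 39.7), at 68.1 in extraembryonic ectoderm and 1.92 in visceral endoderm. The peak chr2:153625402-153626306, inside the neighbouring gene Commd7, was 8.13-fold higher in extraembryonic nuclei (6.94 to 9.55) through visceral endoderm (43.4) and not extraembryonic ectoderm (1.87); Commd7 RNA was itself 1.82-fold higher in extraembryonic nuclei. Epiblast, extraembryonic ectoderm and visceral endoderm each had a peak of this kind that was low in the other 2, while the promoter was near even. These peaks were picked for their large ratios. Of 27 peaks at Dnmt3b, 6 (22.2%) were 2-fold or more higher in embryonic and 4 (14.8%) in extraembryonic nuclei. Both shares were below the 35.3% and 17.8% of the table.

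Of 23 peaks at Dnmt3l, 4 (17.4%) were 2-fold or more higher in extraembryonic nuclei, near the 17.8% of the table. All 4 were highest in extraembryonic ectoderm, which led in 40.1% of such peaks over the table. Of the 4, 2 lay at the second start and just before it. The peak chr10:78047927-78048851 had 46.2 accessibility CPM in extraembryonic ectoderm and 0.715 to 1.93 in all other classes but parietal endoderm (7.37), 12.4-fold higher in extraembryonic nuclei (10.2 to 15.1). The peak over the start, chr10:78049361-78050255, was 2.05-fold higher there (1.72 to 2.44), with 18.4 in extraembryonic ectoderm, 4.52 in epiblast and 0.939 in visceral endoderm. The other two, chr10:78012771-78013661 and chr10:78104138-78105062, lay outside the gene and were 4.06-fold (3.04 to 5.42) and 4.44-fold (3.003 to 6.62) higher. An opposite peak, chr10:78016517-78017438, was 18.7-fold higher in embryonic nuclei (12.3 to 29.97), at 16.8 in epiblast and 0.718 in extraembryonic ectoderm. Dnmt3l RNA in the epiblast was 6.19 CPM, a level from which no expression was read. Aire, a neighbouring gene within that window, had 0.259 and 2.53 CPM of RNA, higher in extraembryonic nuclei as well. At Dnmt3a, chr12:3833584-3834395 inside the gene was 7.17-fold higher in embryonic nuclei (5.41 to 9.70), at 13.5 to 14.4 in epiblast, streak and embryonic mesoderm and 1.79 and 1.82 in visceral endoderm and extraembryonic ectoderm. Embryonic mesoderm was as accessible there as epiblast, although its Dnmt3a RNA was 3.36-fold lower. The 3 extraembryonic peaks of 43 near Dnmt3a (6.98%, against 17.8% of the table) were all highest in visceral endoderm, which led in 56.4% of such peaks over the table. The largest, chr12:3777671-3778456 inside Dtnb, was at 6.68-fold (4.68 to 9.64).

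The maintenance genes, whose RNA and promoters were near even, still had peaks high in 1 lineage near them. At Dnmt1, chr9:20982764-20983812 was 11.5-fold (9.003 to 14.9) and chr9:20978400-20978951 was 11.2-fold (8.31 to 15.3) higher in extraembryonic nuclei; the first had 26.8 accessibility CPM in extraembryonic ectoderm and at most 1.77 in any other class. At Uhrf1, chr17:56278094-56278785 was 23.3-fold higher (16.4 to 34.1), through visceral endoderm (16.9) and not extraembryonic ectoderm (0.766). These windows hold other genes, and peaks were assigned by distance alone: near Uhrf1, Plin3 RNA was 2.31-fold and Ticam1 3.57-fold higher in extraembryonic nuclei, and near Dnmt1, S1pr2 2.40-fold. Some other neighbours of the 8 genes differed less, with ratios of embryonic to extraembryonic RNA of 1.46 for Kdm4b, 0.848 for Mrpl4 and 0.656 for Fem1a.

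Around the erasers, 3 of 21 peaks at Tet1 (14.3%) were 2-fold or more higher in embryonic and 4 (19.0%) in extraembryonic nuclei. The shares of the table were 35.3% and 17.8%. Tet1 had a peak inside the gene, chr10:62865012-62865914, with 26.8 to 33.8 accessibility CPM in the embryonic and haemato-endothelial classes, 13.3 in visceral endoderm and 6.61 in extraembryonic ectoderm (2.92-fold, 2.57 to 3.34). The peak chr10:62892455-62893372, before the second of the 3 Tet1 starts, was 4.85-fold higher in embryonic nuclei (3.44 to 7.06), and chr10:62854657-62855559 was 11.5-fold higher in extraembryonic nuclei (9.12 to 14.7), with 18.8 in visceral endoderm, 14.6 in haemato-endothelial nuclei and 8.48 in extraembryonic ectoderm. Of 15 peaks at Tet2, 3 (20%) were 2-fold or more higher in extraembryonic nuclei, near the 17.8% of the table. All 3 lay inside the gene and were highest in extraembryonic ectoderm, which led in 40.1% of such peaks over the table. The largest, chr3:133518154-133518799, was 16.4-fold higher (9.35 to 30.7) at 6.03 in that class. In classes built from accessibility, Tet2 RNA was highest in extraembryonic ectoderm, at 22.5 CPM, with an interval that overlapped the next class's. In classes built from RNA, in which the peaks were read, it was not. Parietal endoderm held 24.95 CPM (19.2 to 31.9) on 64 UMIs and extraembryonic ectoderm 22.0 (19.8 to 24.3). At Tet3, chr6:83397516-83398367 was 6.46-fold higher in embryonic nuclei (3.04 to 16.4) and highest in embryonic mesoderm (4.19), the class with the least Tet3 RNA.

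Other genes of the methylation pathway were taken from a list of 54, of which 50 had at least 100 UMIs over both sets. Of these, 3 (6%) were 2-fold or more higher in embryonic and 3 (6%) in extraembryonic nuclei, against the 18.9% and 13.2% of all genes, and the list's median ratio was 1.16. The 3 embryonic ones were partners of writers or erasers, out of 18. Cxxc4, whose CXXC domain binds unmethylated CpGs, had 17.9 and 1.38 CPM, 12.9-fold (9.93 to 17.1). Kdm2b, a CpG-island-binding histone demethylase, was at 3.43-fold (3.29 to 3.58), and Qser1, known to protect DNA valleys from the de novo enzymes together with Tet1, at 2.66-fold (2.58 to 2.75) with 412 CPM in epiblast. The 3 extraembryonic ones came from 12 demethylation and repair genes, but from different lineages. Neil2, a DNA glycosylase, was 4.64-fold higher (3.89 to 5.55) through visceral endoderm (15.8 CPM, against 0.989 in extraembryonic ectoderm). Gadd45b, a stress-induced gene linked to demethylation, was 4.11-fold higher (3.63 to 4.66) with 50.4 CPM in extraembryonic ectoderm. Gadd45g was 3.14-fold higher (2.78 to 3.56), with 27.4 CPM there but 97.1 CPM in haemato-endothelial nuclei, which belong to neither set. None of the 9 genes listed as readers (0.589 to 1.65) and none of 10 methyl donor and 2-oxoglutarate supply genes (0.527 to 1.64) was 2-fold apart. Dnmt3c, a rodent paralog of Dnmt3b, was under the minimum.

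Germline genes, whose promoters are textbook targets of DNA methylation in somatic cells, were read from a list of 20, of which 14 passed the minimum. Of those 14, 8 were 2-fold or more higher in extraembryonic and 0 in embryonic nuclei, where 13.2% and 18.9% of all tested genes were, and their median ratio was 0.254, beside 1.06 for all genes. Low genes could pass mainly through their high set, as Asz1 (21 embryonic and 93 extraembryonic UMIs), Slc25a31 (35 and 91) and Tuba3a (29 and 74) did, so the count describes these 14 and supports nothing about the list. The 6 genes under the minimum had 6 to 21 UMIs in embryonic and 4 to 69 in extraembryonic nuclei. The lineages differed from gene to gene. Tex19.1, a gene active in germ cells and placenta, was 6.49-fold higher (6.04 to 6.99), with 214 CPM in extraembryonic ectoderm, 20.9 in visceral endoderm and 9.90 to 15.2 elsewhere. Ddx4, the germ cell helicase also called Vasa, was 6.75-fold higher (6.05 to 7.54) but through visceral endoderm, at 52.5 CPM against 7.45 in extraembryonic ectoderm. The piRNA pathway genes Asz1, Mov10l1 and Piwil2 were 7.75-fold (4.78 to 13.1), 4.97-fold (3.41 to 7.40) and 3.53-fold (2.82 to 4.44) higher, on at most 5.68 CPM in the extraembryonic set. Sycp1, a synaptonemal complex gene, was 5.02-fold higher (3.96 to 6.42), Slc25a31 4.55-fold (3.05 to 6.92) and Tuba3a 4.46-fold (2.87 to 7.11). Methylation itself was not measured, and its part in these levels was not tested.

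**Figure D5:**
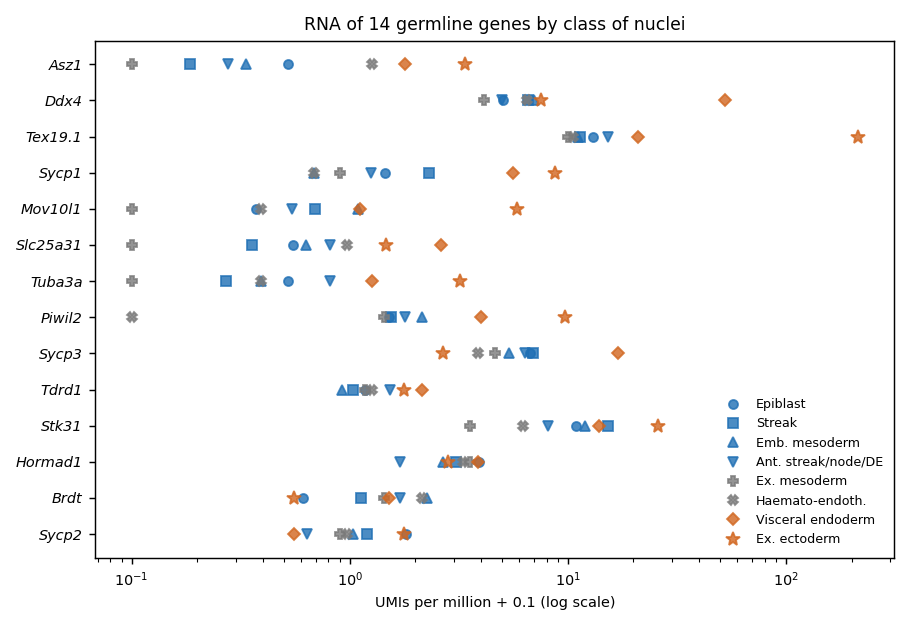
RNA level (CPM plus 0.1, log axis) of the 14 germline genes that passed the UMI minimum, in 8 classes of nuclei (marker shapes; blue embryonic, grey extraembryonic mesoderm and haemato-endothelial, orange extraembryonic). Tex19.1 stands out in extraembryonic ectoderm at 214 and Ddx4 in visceral endoderm at 52.5.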

How the data were processed

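Single-nucleus RNA and accessibility of pooled E7.0 mouse embryos were read from the deposited matrix, with 1 library per assay. Its values were whole-number counts written by the authors with Cell Ranger ARC 2.0.0, per the file headers and the submitters' processing notes: UMI counts per gene and counts per accessibility peak, unnormalized, on mm10. The deposited peak counts were mostly even, as where both ends of a fragment are counted, so intervals used estimated fragments (the count divided by 2, rounded up). Peak and gene coordinates, which were used for windows, were as deposited by the authors. Whether genes were counted by strand was not given in the sources used here; Dnmt3bos overlaps Dnmt3b and Dnmt3aos overlaps Dnmt3a, and Dnmt3bos held 94 UMIs in each set and Dnmt3aos 15 and 6.

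A nucleus was kept if it had 1000 or more UMIs, 1000 or more peak counts and 500 or more genes, with mitochondrial RNA at 20% or less, and doublets were called with scanpy 1.11.5 (Python 3.11.15) and removed. RNA (2000 variable genes, 30 components) and accessibility (peaks in at least 50 nuclei) were clustered apart, with 15 neighbours and Leiden resolution 1 (leidenalg 0.10.2), into 20 and 22 clusters. A cluster was named where a marker list led by a mean log2 of at least 0.5 with at least 3 markers raised and no rival list near it, a rule set after the data were seen. Counts were summed per class and divided by the class total. Ratios have exact conditional-binomial, levels exact Poisson and shares exact binomial 95% intervals (scipy 1.17.1). Only the RNA ratio intervals were run on simulated counts. Those counts were Poisson draws without variation between nuclei or embryos, as the intervals assume, so that run checks the code alone. Reads are not independent of the embryos pooled, so all intervals cover counting error only. Genes and peaks needed 100 counts over both sets. Starts came from the files and, for the members, from RefSeq; other genes had only the first and last start in the files. No genome sequence beyond the RefSeq promoter sequences, and no exon, intron or UTR annotation, was used here.

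The 8 genes, the pathway, germline, S phase and marker lists and the comparisons were chosen with earlier results of these data known. Named in the text are all 8, up to 8 genes per list and direction past 2-fold, the peaks with the largest ratios at each gene, and the 3 genes most like each by Pearson's r; of the last 2 groups the text gives a part, 1 gene is not reported here, and other values were picked after they were seen. Alternatives changed doublet removal, depth minimum, resolution, the assay that defined classes, scaling, set membership, class weighting, thinning, promoter window and peak minimum.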

Additional observations from a re-analysis of the deposited data

How the results depend on the processing

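No paired analysis was possible because there was 1 library per assay and no replicate. Most ratios kept their direction: over 12 alternatives Dnmt3a RNA ranged from 2.55 to 3.29, Dnmt3b from 1.74 to 2.23, Tet1 from 1.51 to 1.69, Tet3 from 1.28 to 1.65, Tet2 from 0.513 to 0.703 and Dnmt3l from 0.107 to 0.2004, and over 15 alternatives the Dnmt3l promoter from 0.227 to 0.617, the last with windows from 500 bp before to 100 bp after a start, added after the data were seen. The RNA ratio of Dnmt1 reversed to 0.923 with doublets kept, 0.987 at resolution 2, 0.971 with the peaks near members left out of the clustering, 0.996 in classes from RNA itself and, in an alternative added after the data were seen, 0.986 with unnamed clusters joined. That of Uhrf1 reversed to 0.970 with doublets kept, and the promoter ratio of Dnmt3b to 0.956 with median-ratio scaling and 0.903 with 2000 bp on each side of a start. The Tet1 promoter ratio, 1.01 with an interval that holds 1, lay below 1 under 7 of 15 alternatives, down to 0.875. That of Tet2, 0.928, stayed below 1 under 14 of 15 and was 1.02 with 2000 bp on each side of a start. The members 2-fold higher in embryonic RNA went from 2 to 1 with doublets kept and, in a further added alternative, to 1 without the rule that leaves a cluster unnamed where a list of the opposite set is raised. Their embryonic peaks went from 49 to 27 with doublets kept; the cause was not tested. With median-ratio scaling the peaks were 44 embryonic and 35 extraembryonic. The low levels of Tet2 and of Dnmt3l outside the ectoderm, the 26 parietal endoderm-like nuclei and peaks near 100 counts limit precision, and with 1 pool no difference carries a biological error.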
